A study of Mus musculus with 2 samples.

Results

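The Ly49 receptors are a family of lectin-like receptors that are encoded by neighbouring genes of the NK gene complex on mouse chromosome 6. The 10 members described here, Klra1 to Klra10, were found by their symbols among the 32285 genes of the count files, and all 10 were present. The cells came from tumors at the site of a peritoneal abrasion in female C57BL/6 mice aged 6 to 8 weeks, which had been given syngeneic p53-/-, myc, Hras ovarian cancer cells i.p., and no cell type was sorted. The first library held the pooled tumors of mice given daily control IgG (7 mice per the labels) and the other those of mice given an Activin A neutralizing antibody (8 mice), for 10 days in both. The published text gives these mouse numbers for a first experiment, another number for the experiment whose cells were sequenced and a different treatment length, and which apply to these libraries was not settled. With 1 pooled library per group there was no replicate and no test: each difference is between 2 libraries, the antibody cannot be told apart from the mice, tumors and handling that went with it, and the 95% intervals given below (exact Poisson for levels, Clopper-Pearson for shares, binomial for ratios) cover counting error only.

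In the mouse, Ly49 receptors take the place that killer cell immunoglobulin-like receptors have in humans. Most members carry an inhibitory motif and dampen an NK cell that meets self MHC class I, while a few lack it and activate the cell through the adaptor DAP12, encoded by Tyrobp. Each NK cell turns on a subset of the genes, so that a population carries many combinations, and some T cells carry the same receptors.

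In 8770 kept cells of the control IgG library and 6386 of the antibody library, 283 and 333 cells met the NK gate, which asks for at least 2 of 5 NK marker genes (Ncr1, Klrb1c, Klre1, Klri2, Txk) and no UMI of a CD3 gene. No Ly49 gene was used in any gate. Eomes, Il7r, Itga1 and Cxcr6 were not used either, so the NK class may hold other innate lymphocytes that carry these NK markers. This was not tested. Ncr1, which encodes the NK receptor NKp46, had a UMI in 71.4% and 57.7% of the NK cells and in 0.804% and 0.633% of the CD8 T cells. A UMI (unique molecular identifier) stands for 1 captured RNA molecule, and levels are given as CPM, the UMIs of a gene summed over a class of cells and scaled to 1000000 UMIs of that class. The NK cells held 1301000 and 1396057 UMIs, with medians of 3610 and 3339 per cell, and 19 cell barcodes were shared by the kept cells of both libraries, 0 of them NK cells.

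All 10 genes lie on the minus strand of chromosome 6 (GRCm38). The members other than Klra2 form a cluster between positions 129898996 and 130386874, and Klra2 lies apart from it. Klra5 lies at chr6:129898996-129917650, Klra4 at chr6:130043731-130067271, Klra8 at chr6:130115226-130129898, Klra7 at chr6:130218605-130233322, Klra1 at chr6:130363917-130386874 and Klra2 at chr6:131219223-131247362. The start regions of 3 members are shown because these members carried the pattern below: Klra4 and Klra8, the activating members, led by level in NK cells, and Klra2 was the member of myeloid cells. The sequences are RefSeq's 300 bases around the first listed start of each gene (GRCm38.p6, minus strand, 5′ to 3′), at chr6:130067222-130067521 for Klra4, chr6:130129849-130130148 for Klra8 and chr6:131247313-131247612 for Klra2. Capitals mark bases that were not the same as the base of Klra4 in a global alignment.

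Klra4: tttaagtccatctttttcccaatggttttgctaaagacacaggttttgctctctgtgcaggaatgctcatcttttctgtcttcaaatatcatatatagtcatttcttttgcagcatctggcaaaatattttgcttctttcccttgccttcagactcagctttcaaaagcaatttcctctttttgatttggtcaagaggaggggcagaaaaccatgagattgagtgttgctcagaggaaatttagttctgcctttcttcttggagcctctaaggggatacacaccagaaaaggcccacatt

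Klra8: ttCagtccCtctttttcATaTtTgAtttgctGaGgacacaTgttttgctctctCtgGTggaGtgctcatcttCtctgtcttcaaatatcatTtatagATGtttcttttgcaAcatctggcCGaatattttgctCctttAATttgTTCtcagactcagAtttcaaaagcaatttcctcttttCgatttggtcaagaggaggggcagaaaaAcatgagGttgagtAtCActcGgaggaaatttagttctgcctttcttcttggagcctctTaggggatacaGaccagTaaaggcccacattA

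Klra2: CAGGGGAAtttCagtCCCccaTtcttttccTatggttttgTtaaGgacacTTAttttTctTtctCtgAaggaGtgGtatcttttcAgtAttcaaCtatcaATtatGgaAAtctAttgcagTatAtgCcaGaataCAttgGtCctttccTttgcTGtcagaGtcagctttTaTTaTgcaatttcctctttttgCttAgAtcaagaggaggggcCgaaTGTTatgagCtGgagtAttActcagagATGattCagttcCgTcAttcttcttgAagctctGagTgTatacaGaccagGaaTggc

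The start regions of Klra4 and Klra8 were 86.0% identical, those of Klra3 and Klra9 85.0%, and that of Klra2 was 71.6% identical to Klra4 although the genes were read in different cells. Klra7, the leading member in CD8 T cells, had 49.7% identity with Klra4 there, near Klra1 (48.3%), Klra3 (48.1%) and Klra10 (48.9%). Klra7 had 2 listed starts, as did Klra8. The first of Klra7, used here, lay at chr6:130231638-130231937, inside the gene and not at its annotated end as for Klra4. The value may thus set unlike starts side by side. The starts of Klra1 and Klra10 lay at their annotated ends. That of Klra5 lay inside its gene, with 68.5% identity. The cause of these values was not tested. Likeness of the transcripts bears on the counts as well, since reads that match more than 1 gene are usually not counted. In the last 500 bases of the transcripts, all 91-base windows were unique to the gene for Klra1, Klra2, Klra4, Klra5, Klra6 and Klra8. The share was 92.0% for Klra3, 90.2% for Klra7, 86.3% for Klra9 and 85.1% for Klra10, and the transcripts of Klra3 and Klra9 were 93.2% identical, so the levels of these members may be understated.

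The family marked NK cells and was read at nearly the same summed level in the 2 libraries. The 10 genes together had 2409.7 CPM (3135 UMIs; 2326.1 to 2495.5) in the NK cells of the control IgG library and 2479.8 CPM (3462 UMIs; 2397.9 to 2563.9) in those of the antibody library. The log2 ratio of antibody over control IgG was 0.04 (-0.03 to 0.11). In CD8 T cells the sum was 46.7 and 39.3 CPM, so that NK cells were higher by a log2 ratio of 5.69 (5.59 to 5.79) in the control IgG library and 5.98 (5.86 to 6.10) in the antibody library. Innate-like T cells, gated by CD3 without Cd4 or Cd8 RNA and with the γδ chain gene Trdc or the NKT factor Zbtb16, stood between, at 444 and 477 CPM, and NK cells exceeded them by 2.44 (2.33 to 2.55) and 2.38 (2.25 to 2.51).

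Of the members with at least 20 UMIs over both classes, 9 of 10 were above NK-over-CD8 log2 1 in the control IgG library, where 8.8% of 13736 genes were, and 9 of 9 in the antibody library, where 9.25% of 12794 genes were. The exception was Klra2, at 1.54 CPM in NK and 1.15 CPM in CD8 T cells of the control IgG library. Klra10 reached 20 UMIs mostly through NK cells, with 16 there and 4 in CD8 T cells (control IgG), and 18 and 5 (antibody). Klra5 in the antibody library, with 15 and 16, also needed its NK UMIs. The place of these members above 1 is therefore no separate result. The widest gaps were those of Klra8, at a log2 ratio of 8.01 (7.65 to 8.39) and 7.13 (6.80 to 7.49), and Klra4, at 7.27 (7.01 to 7.54) and 6.91 (6.62 to 7.21). Klra6 had the narrowest among the other members, at 1.76 (0.97 to 2.47) and 2.84 (2.09 to 3.56).

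**Figure D1:**
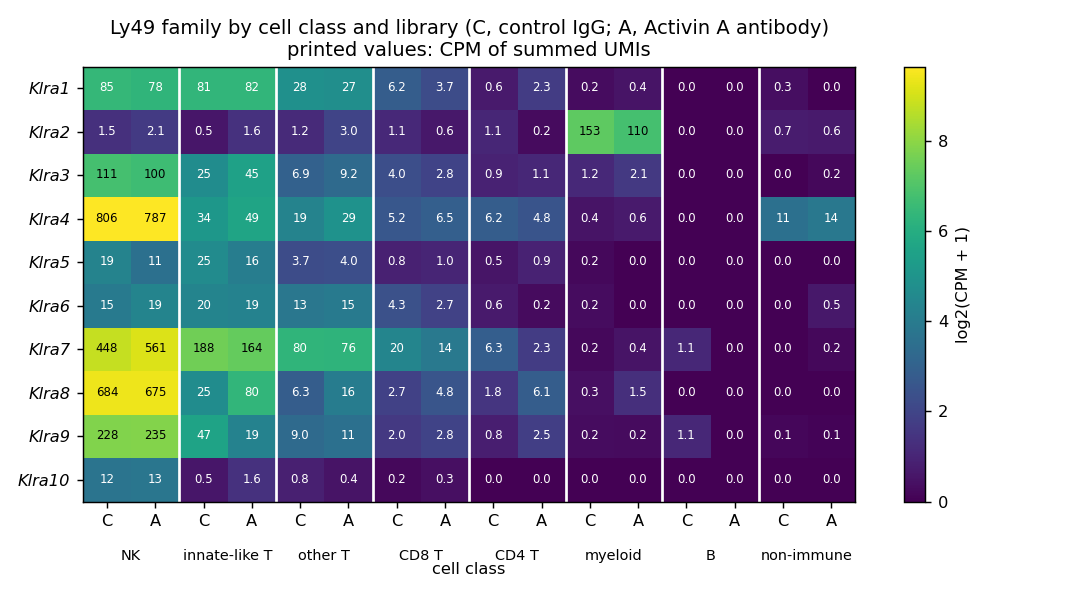
CPM of each Ly49 member (rows) in 8 cell classes, with the control IgG library (C) and the antibody library (A) side by side. Colour is log2(CPM + 1) and the printed numbers are CPM. Klra4, Klra8 and Klra7 are highest in NK cells, Klra7 is the highest member in innate-like, CD8 and other T cells, and Klra2 is high in myeloid cells with 153 and 110.5 CPM.

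B cells gave the background. In them 2 of 213 cells (0.939%) of the control IgG library and 0 of 131 of the antibody library had a Ly49 UMI, at median depths of 2851 and 2774 UMIs. For the latter, a rough limit of 3 cells is 2.29%, which is lower than a Clopper-Pearson limit would be. Against the B cells, 73.9% (68.3 to 78.9) and 81.1% (76.5 to 85.1) of the NK cells had at least 1 Ly49 UMI. Barcodes of at most 100 UMIs, which hold mostly free RNA, carried the family at 73.6 and 114 CPM. The difference in the share of NK cells, antibody minus control IgG, was 7.23 percentage points (0.400 to 14.1). Thinned to 2000 UMIs per cell, which left out 7 and 22 shallower cells, the shares were 71.0% and 77.8%, and the interval of the difference then included 0, at 6.80 points (-0.497 to 14.1). It also included 0 by Ncr1 alone, at 2.84 points (-5.87 to 11.5), with at least 3 NK markers, at 4.17 (-2.77 to 11.2), with a CD3 limit of 1 UMI for NK cells, at 5.09 (-1.28 to 11.5), and with looser limits on cells, at 5.51 (-1.23 to 12.3).

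Members were far from equal in NK cells. By level the 2 activating members stood first: Klra4 encodes Ly49D and Klra8 encodes Ly49H, the receptor that recognises the m157 protein of mouse cytomegalovirus. Klra4 had 806 CPM (758 to 857) and 787 CPM (741 to 834), with a UMI in 40.3% and 46.5% of the NK cells. Klra8 had 684 CPM (640 to 731) and 675 CPM (632 to 719), in 44.2% and 44.7% of cells. Their intervals between the libraries overlapped, with log2 ratios of -0.04 (-0.16 to 0.09) and -0.02 (-0.15 to 0.11).

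Klra7, which encodes the inhibitory receptor Ly49G, came next by level, though it was read in more NK cells than any other member in both libraries. It was the member that differed most clearly over all NK cells. Klra7 was not clearly higher with the antibody in every part of these cells, as given below. It had 448 CPM (412 to 486) in the control IgG library and 561 CPM (522 to 602) in the antibody library, a log2 ratio of 0.32 (0.17 to 0.48), and a UMI in 47.3% and 55.6% of cells. Its 583 and 783 UMIs were spread over 134 and 185 cells, the 5 highest cells holding 90 and 78 of them. The Klra7 interval was the only one of the 10 that left out 0, where 7.88% of 9101 genes had an interval above 0 and 5.44% below. Those genes were not matched to the members for UMIs, and intervals leave out 0 more readily at higher counts. With NK cells gated by Ncr1 alone the Klra7 ratio was 0.09 (-0.11 to 0.28) and that of Klra1 was -0.91 (-1.50 to -0.35), while under the other 7 settings tried Klra7 lay between 0.20 and 0.39.

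Klra9 and Klra3, members that bind the class I molecule H-2Kb of C57BL/6 mice, followed, and then Klra1. Klra9, which encodes Ly49I, had 228 and 235 CPM, in 32.5% and 33.9% of NK cells. Klra3, which encodes Ly49C, had 111 and 99.6 CPM, in 17.3% and 17.7% of cells. Klra1, which encodes the inhibitory receptor Ly49A, had 84.6 and 78.1 CPM, in 14.5% and 13.2% of cells. Each of these differed between the libraries by less than its counting error.

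The last members were rare in NK cells. Klra5 (Ly49E), known from NK cells of early life, had 19.2 and 10.7 CPM, with 24 of 25 and 14 of 15 UMIs in 5 cells of each library. Klra6 (Ly49F) had 14.6 and 19.3 CPM and Klra10 (Ly49J) had 12.3 and 12.9 CPM, each in 14 to 18 cells of a library. Klra2 (Ly49B), known from myeloid cells, had 2 and 3 UMIs in all. In order of level, Klra4 and Klra8 stood apart from each other in both libraries, while the intervals of Klra5, Klra6 and Klra10 overlapped.

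**Figure D2:**
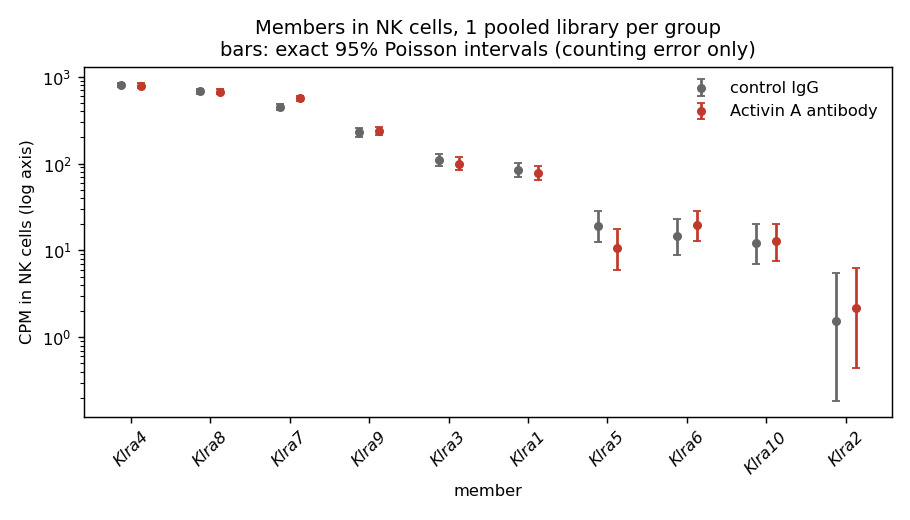
CPM of each member in NK cells on a log axis, with exact 95% Poisson intervals, for the control IgG library (grey) and the antibody library (red). The levels span from 806 CPM for Klra4 to 1.54 CPM for Klra2 in the control IgG library, and the grey and red intervals are apart for Klra7.

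Across all 9101 genes with at least 20 UMIs in the NK cells, 4.12% had a log2 ratio of antibody over control IgG beyond 1 in either direction, against 0 of the 9 members that reached this count. The median was 0.04 over all genes and -0.02 over the members, with 4 above 0 and 5 below. NK cells made up 3.23% (2.87 to 3.62) of the kept cells in the control IgG library and 5.21% (4.68 to 5.79) in the antibody library, a log2 ratio of 0.69 (0.46 to 0.93), or 0.39 by Ncr1 alone. Over all kept cells, Klra4 and Klra8 had log2 ratios of 0.56 (0.47 to 0.66) and 0.69 (0.58 to 0.81).

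NK cells that carried Ly49 RNA mostly carried that of several members. Leaving out Klra2, 208 and 270 NK cells had a member UMI, and 85.6% (80.1 to 90.1) and 84.8% (80.0 to 88.9) of these had at least 2 members. The median was 3 members in both libraries and the most was 6 of 9. Thinned to 2000 UMIs, 78.1% (71.6 to 83.6) and 78.9% (73.2 to 83.9) of the positive cells had at least 2. In innate-like T cells the share was 60.5% and 55.2% without thinning, and in CD8 T cells 32.3% and 38.5%. The mean number of members per NK cell was 2.08 and 2.23.

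**Figure D3:**
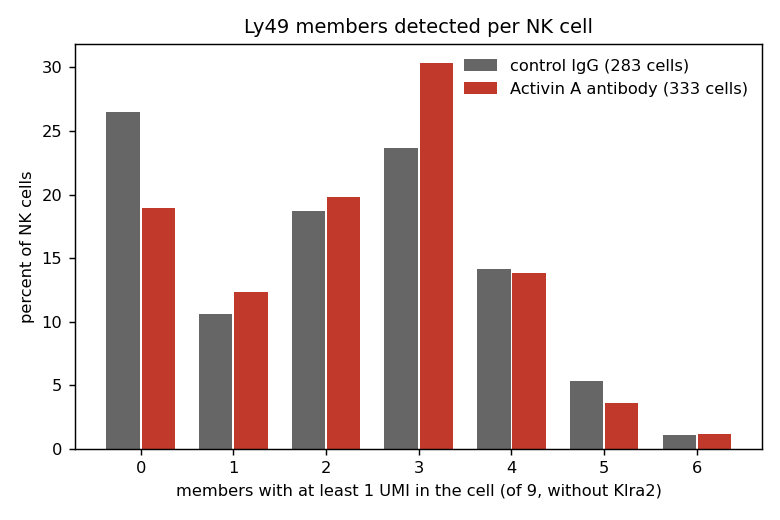
Percent of NK cells (vertical axis) by the number of Ly49 members with at least 1 UMI in the cell (horizontal axis, of 9), for 283 cells of the control IgG library (grey) and 333 of the antibody library (red). Among cells with a member the most common number was 3, seen in 67 and 101 cells, and 75 and 63 cells had none.

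Co-detection was compared with the number expected if 2 members fell independently among NK cells of like depth; cells were split into 5 equal bins by UMIs for this. Over the 15 pairs of the 6 most abundant members, 12 pairs in the control IgG library and 13 in the antibody library were seen together more often than that, with medians of 1.26 and 1.17 times the expected number. The expected number was taken over all NK cells, 75 and 63 of which had no member UMI, and such cells raise the ratio of every pair. Ratios within the NK cells that had a member were not computed. The activating pair Klra4 with Klra8 was high in both, in 85 cells against 53.7 expected (1.58) and 98 against 69.9 (1.40). Klra1 with Klra7, both inhibitory, was seen in 28 cells against 20 and 36 against 24.6.

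Klra1 together with Klra3 was seen in 6 cells against 7.24 and 6 against 7.73, a difference of fewer than 2 cells in each library. With UMIs thinned to 2000 per cell this pair was at 1.23 and 0.653 times expected, so it had no steady direction, while Klra4 with Klra8 was at 1.68 and 1.51. Klra3 with Klra9, the pair that binds H-2Kb and shares reads, was at 0.873 and 1.12 times expected. The ratios were larger in T cells, where the positive cells are a small share of the class, with medians of 2.75 and 2.65 in innate-like T cells and 9.23 and 13.8 in CD8 T cells. These ratios describe cells of 2 libraries and carry no test.

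NK cells with and without Ly49 RNA differed in many other genes, and in the same direction in both libraries for most of those named here, which were chosen after their values were seen. Eomes, a transcription factor of mature NK cells, had 164 CPM in the 208 cells with a member UMI and 15.2 CPM in the 75 cells without in the control IgG library, a log2 ratio of 3.44 (2.36 to 4.78). In the antibody library it had 240 CPM in 270 cells and 28.0 CPM in 63 cells, a log2 ratio of 3.10 (2.23 to 4.12). The cells with Ly49 RNA were also higher in Gzma, which encodes granzyme A (2.60 and 2.74), in the perforin gene Prf1 (1.49 and 2.14) and in the integrin gene Itgam (2.15 and 1.95). S1pr5, a receptor used to leave tissues, had 24 and 33 UMIs with Ly49 and 0 without.

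Some genes were higher in the cells without Ly49 RNA, and whether all of these cells were NK cells was not tested. Cxcr6, a chemokine receptor of resident lymphocytes, had 199 CPM in them against 19.1 CPM in the cells with Ly49 RNA in the control IgG library, and 138 against 12.0 CPM in the antibody library. Il7r, which encodes the interleukin-7 receptor, had log2 ratios of -3.09 (-3.62 to -2.60) and -2.34 (-2.77 to -1.93), and Itga1, which encodes CD49a, -2.15 (-2.72 to -1.61) and -1.45 (-1.98 to -0.92). Cd69, also known from resident lymphocytes, was at -0.04 (-0.56 to 0.51) and -0.11 (-0.69 to 0.51). Tyrobp, the adaptor of the activating members, was read on both sides, at 1979.6 and 1865 CPM with Ly49 against 1104 and 899 CPM without. The cells without Ly49 RNA had medians of 4578 and 3774 UMIs and those with it 3394 and 3214.

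**Figure D4:**
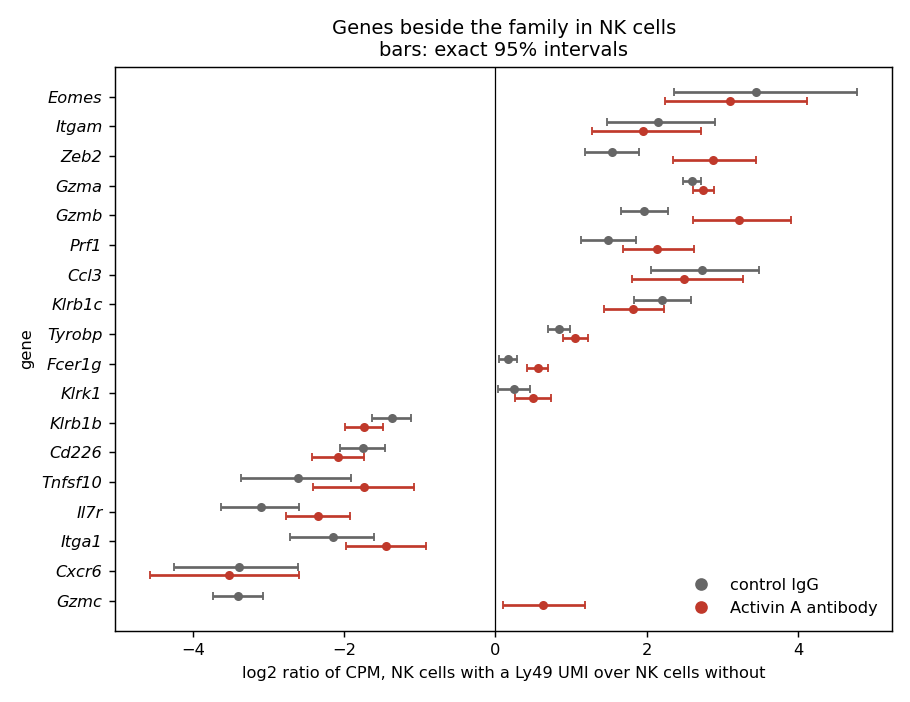
Log2 ratio of CPM (horizontal axis) between NK cells with and without a Ly49 UMI for genes chosen after their values were seen (vertical axis), with exact 95% intervals, in the control IgG library (grey) and the antibody library (red). Eomes lies at 3.44 and 3.10, Cxcr6 at -3.38 and -3.52, and Gzmc changes side between the libraries, at -3.40 and 0.63.

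Gzmc, which encodes granzyme C, was the gene of this set whose ratio changed sign between the libraries. It rested on few cells: 498 of the 529 Gzmc UMIs in cells without Ly49 RNA of the control IgG library came from 5 cells, and 148 of the 150 in cells with Ly49 RNA of the antibody library did, 129 of them from 1 cell.

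Split by markers chosen with earlier results of these data known, the family was highest in NK cells with an Eomes UMI. These 99 and 144 cells had 3617.2 and 3517.6 CPM, with 94.9% and 94.4% of cells positive and a log2 ratio of -0.04 (-0.13 to 0.05). The 67 and 59 cells of the NK gate with Itga1 or Cxcr6 and no Eomes UMI had 427 and 704 CPM, and 25.4% (15.5 to 37.5) and 40.7% (28.1 to 54.3) of them were positive. Their log2 ratio was 0.72 (0.44 to 1.00), and Klra7 had 9 UMIs in 5 control IgG cells and 49 UMIs in 14 antibody cells there, 35 of these in 5 cells. The remaining 117 and 130 NK cells had 3135 and 2522 CPM, a log2 ratio of -0.31 (-0.43 to -0.20). Klra7 had 265 of 422641 UMIs in the control IgG library and 256 of 463052 in the antibody library in these cells. This was lower with the antibody, but by less than its counting error. In the Eomes cells it was higher, with 309 of 449793 and 478 of 581925 UMIs.

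Other receptor genes of the same gene complex included several that were lower in the antibody library. Of 15 listed, 13 had at least 20 UMIs in NK cells, and the interval lay below 0 for 7 and above 0 for 0, with a median log2 ratio of -0.19 against 0.04 over all genes. Of all 9101 genes with this count, 5.44% had an interval below 0 and 7.88% above. Those genes were not matched to the list for UMIs, and intervals leave out 0 more readily at higher counts. Klrb1c, Klre1 and Klri2 of this list are gate markers. The 3 with the largest differences were Klri1 at -0.92 (-1.68 to -0.20), Klrg1 at -0.59 (-0.95 to -0.22) and Klrb1f at -0.47 (-0.71 to -0.23). Of 10 adaptor and signalling genes, 3 had an interval above 0 (Vav1 at 0.38, Syk at 0.30 and Cd247 at 0.29) and 1 below, and Tyrobp was at -0.07 (-0.15 to 0.02). Among the ligands, H2-K1 was at -0.05 (-0.12 to 0.01), B2m at 0.06 (-0.02 to 0.14) and H2-D1 at -0.27 (-0.34 to -0.20) in the NK cells themselves.

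Of 8 other NK receptor genes with enough UMIs, 3 had an interval below 0, Ncr1 at -0.63 (-0.82 to -0.44), Cd226 at -0.52 (-0.74 to -0.30) and Slamf7 at -0.46 (-0.85 to -0.08). Tigit was at -0.60 (-1.42 to 0.19), an interval that includes 0. Ncr1 is also a gate marker. Of 16 genes of maturation and residence, 3 had an interval above 0 and 1 below, with Eomes at 0.70 (0.40 to 1.00), the related factor Tbx21 at 0.51 (0.32 to 0.70) and Cxcr6 at -0.81 (-1.28 to -0.36). Of 10 effector genes, 2 had an interval above 0 and 5 below, led by Gzmc at -1.82 (-2.07 to -1.59), Gzmb at -0.67 (-0.83 to -0.51) and Ifng at -0.40 (-0.71 to -0.10). The Gzmc interval is too narrow, since its UMIs lay in few cells. In the control IgG library 498 of the 529 in cells without Ly49 RNA came from 5 cells, and in the antibody library 129 of all 188 came from 1 cell. Beside these lists, 7.88% of all 9101 genes had an interval above 0 and 5.44% below, again not matched for UMIs.

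The family had another make-up in innate-like, CD8 and other T cells than in NK cells. Leaving out Klra2, the activating Klra4 and Klra8 held 61.9% (60.2 to 63.6) and 59.0% (57.3 to 60.6) of the family's UMIs in NK cells. In innate-like T cells they held 13.3% (11.1 to 15.7) and 27.1% (23.5 to 30.9), and in CD8 T cells 17.3% (15.1 to 19.6) and 29.2% (25.7 to 32.9). Klra7 led in these T cells, with 42.3% and 34.6% of the UMIs in innate-like T cells and 44.4% and 36.3% in CD8 T cells, against 18.6% and 22.6% in NK cells. The same order was seen in the T cells with a CD3 UMI and no class of their own, most of which had neither Cd4 nor Cd8 RNA, at 47.9% and 40.7% for Klra7. Those cells carried the family at 168 and 189 CPM, and 12.7% and 11.9% of them also had a UMI of Dlk1, a gene of the non-immune cells here, whose part in this was not tested. CD4 T cells were closer to NK cells on few UMIs: Klra4 and Klra8 held 45.3% (36.1 to 54.8) of 117 and 53.9% (43.0 to 64.6) of 89 UMIs, and Klra7 held 35.9% (27.2 to 45.3) and 11.2% (5.52 to 19.7).

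**Figure D5:**
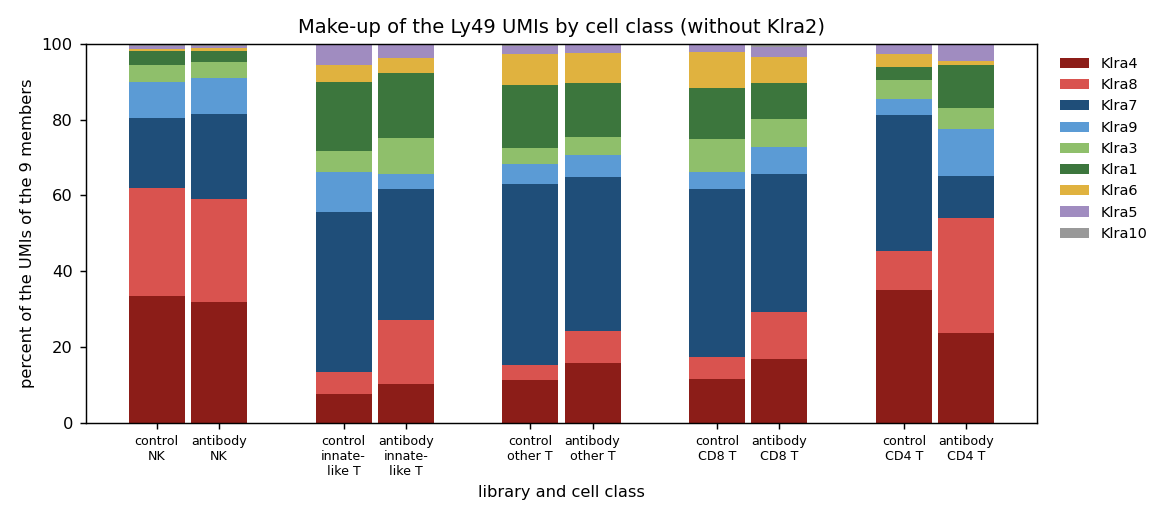
Percent of the UMIs of 9 Ly49 members (vertical axis, Klra2 left out) held by each member in 5 cell classes, with 1 bar per library. The red shades for Klra4 and Klra8 fill 61.9% and 59.0% of the NK bars and at most 29.2% of the innate-like, other and CD8 T cell bars, where Klra7 (dark blue) is the largest. In the CD4 T cell bars they fill 45.3% and 53.9%.

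Some members had larger ratios between the libraries in T cells than in NK cells, on few cells. Whether the classes differed in this was not tested. In innate-like T cells, 2 of 8 members with at least 20 UMIs were beyond a log2 ratio of 1, where 5.85% of 10855 genes were. Klra8 had 25 and 80.1 CPM, a log2 ratio of 1.68 (1.18 to 2.20), but it was read in 11 of 270 and 9 of 173 cells, 4.07% and 5.20%, and 39 of 50 and 78 of 99 UMIs came from 5 cells. Klra9 had 47.0 and 18.6 CPM, a log2 ratio of -1.34 (-2.06 to -0.67), in 7.04% and 6.94% of cells. For both genes the share of cells with a UMI thus overlapped between the libraries while the level did not.

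In CD8 T cells, 1 of 9 members was beyond a log2 ratio of 1, Klra2 with 29 and 9 UMIs (-1.05; -2.32 to 0.07), where 5.21% of 14556 genes were. The median over the members was -0.48 against -0.01 over all genes. Klra7 had 20.2 and 14.1 CPM, a log2 ratio of -0.52 (-0.75 to -0.29), in 4.08% and 2.61% of cells. Klra1 was at -0.74 (-1.20 to -0.30) and Klra6 at -0.67 (-1.21 to -0.16), while Klra8 was at 0.86 (0.37 to 1.35) with 13 and 16 positive cells. In CD4 T cells, where all members together had 18.7 and 20.4 CPM, no member was read in more than 10 cells of a library.

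Much of the Ly49 RNA of T cells lay in T cells that also carried NK marker genes. CD8 T cells with at least 2 of the 5 NK markers were 6.66% and 4.91% of the class and held 69.8% and 58.9% of its UMIs of the 9 members. Of the Klra7 UMIs they held 362 of 511 and 90 of 229, 70.8% and 39.3%. In CD4 T cells, 22 and 13 such cells held 97 of 117 and 73 of 89 UMIs of the 9 members. In innate-like T cells, such cells were 28.5% and 36.4% of the class and held 653 of 887 and 462 of 587, 73.6% and 78.7%. In other T cells, such cells held 64.8% and 74.7%. Of the Klra8 UMIs, such cells held 63 of 67 and 72 of 78 in CD8 T cells, and 40 of 50 and 99 of 99 in innate-like T cells. Without these cells Klra7 in CD8 T cells had 6.36 and 9.07 CPM, a log2 ratio of 0.51, so its direction turned. The share of Klra4 and Klra8 in the family UMIs also turned without them, to 16.7% and 6.18% in CD8 T cells and to 9.83% and 1.60% in innate-like T cells. Klra8 in other T cells turned likewise, from 1.33 (0.92 to 1.74) to -1.30 on 17 and 5 UMIs. In innate-like T cells Klra8 was left with 10 UMIs in the control IgG library and 0 in the antibody library, so its direction turned too. Other values kept their direction without these cells. The Klra4 and Klra8 share in other T cells was 15.1% and 24.1% with them and 12.2% and 26.9% without. Klra8 in CD8 T cells was left at 0.171 and 0.392 CPM, on 4 and 6 UMIs.

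CD8 T cells with at least 2 UMIs of the 9 members, 120 and 77 cells, differed from those with none in genes chosen after their values were seen. Ikzf2, which encodes the transcription factor Helios, had 693 against 103 CPM in the control IgG library, a log2 ratio of 2.75 (2.63 to 2.86), and 1070.1 against 147 CPM in the antibody library, 2.86 (2.73 to 2.99). Tcf7, which encodes a factor of memory T cells, and Tyrobp were also higher in both libraries, at 1.40 and 1.35 and at 2.99 and 4.16. Pdcd1, which encodes PD-1, was lower at -1.44 (-1.78 to -1.12) and -0.70 (-1.07 to -0.36), and so were Havcr2 and Cd8b1. The positive cells had medians of 6260 and 5541 UMIs against 5370.5 and 4519.

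Klra2 was the member of myeloid cells. It had 153 CPM (1844 UMIs; 146 to 160) in 1528 cells of the control IgG library and 110.5 CPM (532 UMIs; 101 to 120) in 644 cells of the antibody library, a log2 ratio of -0.47 (-0.61 to -0.33). A Klra2 UMI was found in 52.5% (49.9 to 55.0) and 38.7% (34.9 to 42.5) of these cells, at median depths of 7111.5 and 6266 UMIs. The other members together had 2.99 and 5.19 CPM there. Of the 2 members with at least 20 UMIs, 0 were beyond a log2 ratio of 1, where 8.39% of 12672 genes were.

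Within the myeloid class the difference was in the same direction in cells with and without complement C1q RNA. The cells with C1q RNA, 961 and 259, had 139 CPM (131 to 147) and 107 CPM (92.4 to 123). The myeloid cells in none of the named parts, 483 and 320, had the higher level of 226 CPM (209.9 to 243) and 143 CPM (128 to 159). Dendritic cells were low, with 23 UMIs in 80 cells and 3 in 53. The class itself was 17.4% and 10.1% of the kept cells.

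Over the sums of 8 classes in 2 libraries, 16 points that share libraries and depth, the genes most like Klra2 on log2(CPM + 10) were Ms4a8a, Sirpb1c, Tarm1, C3ar1 and Gm36161, with Pearson correlations of at least 0.996. The genes most like the sum of the 10 members were Klrk1, which encodes the receptor NKG2D (0.94), Klri1 (0.93), Arap3, 1700025G04Rik and Clnk, and those most like the sum without Klra2 were Samd3 (0.99), Gm41031, Xcl1, Klrc2 and Clnk.

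Outside lymphocytes and myeloid cells, Klra4 was read in non-immune cells that expressed keratin genes or Dlk1. It had 67 UMIs in 19 of 122 such cells (15.6%; 9.64 to 23.2) of the control IgG library and 168 UMIs in 42 of 203 (20.7%; 15.3 to 26.9) of the antibody library, with up to 10 and 25 in a cell. The positive cells held 0 UMIs of Klra7 and 0 of Klra8, and 4 UMIs of Tyrobp in each library. In the free RNA, Klra4 was at 12.4 and 24.7 CPM beside Klra7 at 17.7 and 28.6 CPM and Klra8 at 9.08 and 19.7 CPM. These were 78 of 6276955 and 114 of 4614237 free RNA UMIs for Klra4, against 67 of 5514280 and 168 of 10720394 UMIs in the keratin or Dlk1 cells. Klra4 was thus no larger a part of all UMIs in these cells than in the free RNA of either library. How much of the RNA of these cells was free RNA was not measured. The comparison therefore cannot tell where their Klra4 UMIs came from, which was not tested. The keratin or Dlk1 cells were deep, with medians of 42926 and 53543 UMIs. In 1 random draw of 2000 UMIs per cell, 1 of 255 (0.392%) and 5 of 395 (1.27%) of all non-immune cells had a Klra4 UMI. The share expected over such draws was 1.42% in both libraries. Without thinning, 24 of 256 and 45 of 398 had one.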

How the data were processed

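Single-cell 3′ RNA libraries of dissociated tumors were read as deposited. Per the file headers, the authors counted UMIs per gene and barcode with a Cell Ranger of major version 4, while the processing notes name Cell Ranger 7.0.1 and mm10. The versions may differ in counting introns, and the labels and the published methods name different 10x chemistries; neither was settled. The deposited counts were whole numbers for 32285 genes over all barcodes. The members and all gene lists were chosen with earlier results of these data known.

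A barcode was kept as a cell with 1000 to 8500 detected genes, a total of 1000 to 100000 UMIs and no more than 10% of them mitochondrial. Classes were set by marker genes: NK cells by at least 2 of 5 markers and 0 CD3 UMIs, T cells by at least 1 CD3 UMI, then as CD8 or CD4 by those genes and, without either, as innate-like by Trdc or Zbtb16, and myeloid cells by at least 4 of 13 markers with at least 2 UMIs each. Cells of more than 1 gate (543 and 150) were left out in place of a doublet caller, which was not run. UMIs were summed per class and library as CPM. With 1 library per group no test was made, and "higher" or "lower" describes these libraries. PCR duplicates are removed by UMIs, and intervals are too narrow where UMIs lie in few cells. Genes entered log2 ratios over all genes with at least 20 UMIs. All 10 members and, of each list, the 3 largest differences in NK cells were named; parts of T and non-immune cells, NK and CD8 T cells split by Ly49 UMIs, and sums without Klra2 were chosen after the data were seen. Gene positions came from the GRCm38 annotation, and start regions from RefSeq, where all 10 members matched. The ratio and co-detection steps were tested on simulated data. Alternatives tried were other limits on cells, other NK, CD3 and innate-like T gates, cells of several gates kept, deep cells left out, free RNA subtracted, thinning and median centring. Python 3.11.15, numpy 2.4.6, scipy 1.17.1, pandas 2.3.3, matplotlib 3.10.9 and Biopython 1.88 were used.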

Additional observations from a re-analysis of the deposited data

Results flagged for a closer look

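3 members differed in opposite directions between classes, with intervals of counting error off 0 on both sides. The share of all genes that do so was not computed, and the difference between the classes was not tested. Klra7 was at a log2 ratio of antibody over control IgG of 0.32 in NK cells, -0.52 in CD8 T cells and -1.48 in CD4 T cells (42 and 10 UMIs). Without T cells of 2 or more NK markers, its value in CD8 T cells turned to 0.51. Klra1 was at 1.91 in CD4 T cells, on 4 and 10 UMIs, and -0.74 in CD8 T cells. Klra9 was at 1.73 in CD4 T cells, on 5 and 11 UMIs, and -1.34 in innate-like T cells.

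Klra4 RNA was also found outside the immune classes: a Klra4 UMI was in 15.6% and 20.7% of the keratin or Dlk1 cells of the control IgG and antibody libraries, above the 0.939% and 0 of B cells with any Ly49 UMI. B cells were far shallower, with medians of 2851 and 2774 UMIs against 42926 and 53543. In 1 random draw of 2000 UMIs per cell, a Klra4 UMI was in 0.392% (0.00993 to 2.17) and 1.27% (0.412 to 2.93) of all non-immune cells. Beside this, 0.495% (0.0125 to 2.73) and 0 of 121 B cells had any Ly49 UMI, so in that draw the intervals overlapped. The shares expected over draws were 1.42% in both libraries for Klra4 in non-immune cells, and 0.46% and 0 for B cells. The keratin or Dlk1 cells were not thinned apart from the other non-immune cells. Their Klra4 level, as a part of all their UMIs, was not above that of the free RNA in either library. How much of their RNA was free RNA was not measured, so this cannot tell where their Klra4 UMIs came from.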

How the results depend on the processing

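No paired analysis was possible because the control IgG and antibody groups hold 1 library each, and no replicate could be left out. Log2 ratios are given unless said otherwise. With at least 3 NK markers the summed Ly49 ratio of antibody over control IgG in NK cells was -0.0499, and its other 9 settings gave -0.02 to 0.08. NK over CD8 T cells in the control IgG library was 5.85 with at least 3 NK markers, 5.52 by Ncr1 alone, 5.53 with cells of 2 gates kept and 5.80 with free RNA subtracted; in the antibody library it was 5.75 by Ncr1 alone and 6.20 with free RNA subtracted. NK over innate-like T cells in the control IgG library was 2.60 with at least 3 NK markers, 2.27 by Ncr1 alone, 2.25 with a limit of 1 CD3 UMI for NK and 2 for T cells, 1.96 with innate-like T cells set by Trdc and 2.59 with cells of 2 gates kept; in the antibody library it was 2.15 by Ncr1 alone, 2.05 with a limit of 1 CD3 UMI for NK and 2 for T cells and 1.71 by Trdc. The NK share of kept cells was at 0.39 by Ncr1 alone. The difference in NK cells with a Ly49 UMI ran from 2.84 to 7.91 percentage points over 8 settings, and its interval included 0 under 5 of them. The cause was not tested.

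Chosen after seeing the data, leaving out T cells with 2 or more NK markers turned Klra7 in CD8 T cells to 0.51, Klra8 in other T cells to -1.30, and the ratio of the Klra4 and Klra8 share of family UMIs to -1.43 in CD8 T cells and -2.62 in innate-like T cells. Klra8 in innate-like T cells, with 10 and 0 UMIs left, had no finite ratio and was no longer higher in the antibody library. Klra8 in CD8 T cells, on 4 and 6 UMIs, and the Klra4 and Klra8 share in other T cells kept their direction. Depth limits Klra2, Klra5, Klra6 and Klra10 in NK cells, each with at most 27 UMIs in a library.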
